A study of Homo sapiens with 8 samples.

Results

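Class I antigen presentation was followed through 9 genes of the pathway: the heavy-chain genes HLA-B, HLA-C and HLA-E, the light-chain gene B2M, the peptide transporter genes TAP1 and TAP2, the loading gene TAPBP, and the immunoproteasome genes PSMB8 and PSMB9. They were chosen by gene symbol from a table of 36474 genes, and all 9 were found and passed the filter on low counts that kept 21071 genes. Among transcripts of the transport and loading step, 2 rose against 0 h: TAPBP was 1.13-fold higher at 12 h and 1.23-fold higher at 24 h than at 0 h, and TAP1 was 1.15-fold higher at 24 h. Of all genes tested, 11.6% passed the same test at 12 h and 16.3% at 24 h. The 12 h rise of TAPBP did not pass in a fit of the 0 h and 12 h libraries alone. The 24 h rise of TAP1 did not pass without 24 h replicate 2 or without 24 h replicate 3. Without 0 h replicate 1, log2 changes shrank from 0.18 to 0.13 for TAPBP at 12 h and from 0.21 to 0.14 for TAP1 at 24 h. The heavy chains and B2M did not pass the test in any comparison, and neither did TAP2, whose estimates against 0 h were negative. PSMB8 and PSMB9, which need interferon for high expression in most cells, were counted at 4 to 26 reads per library, although the libraries held 73406825 to 96962135 counts.

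A class I molecule is a heavy chain paired with beta-2-microglobulin, and it shows short peptides of cytosolic proteins to CD8+ T cells. The proteasome makes the peptides, the TAP1/TAP2 transporter carries them into the endoplasmic reticulum, and tapasin, the product of TAPBP, holds empty class I molecules at the transporter until a peptide fits. Interferons raise the whole pathway, through IRF factors and NLRC5 among others, and exchange the standard catalytic proteasome subunits for immunoproteasome subunits. Reduced class I display is known from many prostate carcinomas.

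RNA was sequenced from LNCaP, an androgen-responsive cell line established from a prostate carcinoma metastasis, so the data describe 1 line in culture with no T cells or stroma. All groups were starved for 6 to 12 h in medium lacking serum and calcium, and were labelled as treated with recombinant human ASPN (asporin, a matrix protein that stromal cells secrete) at 100 ng/mL. The libraries analysed were from 0 h (2 libraries), 12 h (3 libraries) and 24 h (3 libraries). Per the methods of the study, cells were plated as 3 replicates, and 1 LNCaP replicate of time 0 was excluded for failing quality control. No library kept for 12 or 24 h without ASPN was analysed here, so ASPN and time in the starvation medium cannot be told apart, and both comparisons with 0 h share the same 2 libraries. The question was which transcripts changed with ASPN exposure. The libraries are labelled as biological replicates, but nothing says that their wells came from separate cultures, so p values measure the spread between these libraries.

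Levels are in CPM, the count of a gene relative to its TMM-scaled library size, with the SD over libraries. A count of 0 would allow up to 0.0309 to 0.0409 CPM, which covers counting error only. All 8 luminal prostate markers were counted, with a summed level of 4332 to 4410 CPM at 0 h, 4804 to 4853 CPM at 12 h and 4803 to 4994 CPM at 24 h. Immune markers, of which 8 of 9 were in the table, summed to 0.191 to 0.420 CPM, with at most 24 counts for any of them. The 7 fibroblast and endothelial markers summed to 36.6 to 38.5 CPM at 0 h, 35.4 to 37.8 CPM at 12 h and 31.6 to 34.4 CPM at 24 h. Only 4 of them exceeded 3 counts in every library, and the largest count of any of them in a library was 1826. Fewer cells of a kind and less RNA per cell cannot be told apart in bulk libraries, and the part of these shifts in the results below was not tested.

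Of the 9 genes, 8 lie in the major histocompatibility complex on chromosome 6 (GRCh38, coordinates as deposited), and B2M lies on chromosome 15 (44711487 to 44718851). The heavy-chain genes HLA-E (30489509 to 30494194), HLA-C (31268749 to 31272130) and HLA-B (31353872 to 31357188) are followed by a cluster of TAP2 (32821833 to 32838770), PSMB8 (32840717 to 32844679), TAP1 (32845209 to 32853816) and PSMB9 (32844136 to 32859851), and then by TAPBP (33299694 to 33314387). TAP1 and PSMB9 are transcribed away from each other from RefSeq start sites 488 bases apart. The deposited span of PSMB9 is longer: it begins inside PSMB8 and encloses TAP1 on the opposite strand. Promoter windows from RefSeq (GRCh38.p14) were matched for 8 of the 9 genes. The 250 bases before the start are shown for the paralogs HLA-B and HLA-C, for TAP1 and TAPBP, whose transcripts rose, and for PSMB9, the neighbour of TAP1 that was close to the counting floor. Capitals mark the letters of an interferon-stimulated response element (GAAANNGAAA or GAANNGAAA) or of a kappa B site (GGGA, any base, T, any base, CCC), searched on both strands.
HLA-B promoter, chr6:31357180-31357429, minus strand: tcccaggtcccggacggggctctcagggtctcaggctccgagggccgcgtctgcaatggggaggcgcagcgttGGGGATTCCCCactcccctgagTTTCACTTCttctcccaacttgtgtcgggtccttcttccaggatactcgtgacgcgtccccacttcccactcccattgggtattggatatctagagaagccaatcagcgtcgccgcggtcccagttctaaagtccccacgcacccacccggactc
HLA-C promoter, chr6:31272093-31272342, minus strand: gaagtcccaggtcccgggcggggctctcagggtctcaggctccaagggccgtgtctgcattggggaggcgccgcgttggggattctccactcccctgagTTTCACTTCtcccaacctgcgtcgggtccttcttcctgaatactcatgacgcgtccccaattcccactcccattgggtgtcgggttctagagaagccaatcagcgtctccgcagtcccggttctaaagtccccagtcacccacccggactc
TAP1 promoter, chr6:32853705-32853954, minus strand: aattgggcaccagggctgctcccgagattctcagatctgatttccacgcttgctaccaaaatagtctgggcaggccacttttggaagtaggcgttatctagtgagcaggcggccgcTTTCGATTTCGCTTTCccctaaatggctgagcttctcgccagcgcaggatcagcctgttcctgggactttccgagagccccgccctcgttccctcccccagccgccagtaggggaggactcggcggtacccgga
TAPBP promoter, chr6:33314079-33314328, minus strand: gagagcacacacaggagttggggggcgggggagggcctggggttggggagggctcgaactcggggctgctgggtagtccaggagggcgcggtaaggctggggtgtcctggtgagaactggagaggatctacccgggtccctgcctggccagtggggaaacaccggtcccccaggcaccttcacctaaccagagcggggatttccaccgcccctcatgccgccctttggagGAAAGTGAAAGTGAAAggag
PSMB9 promoter, chr6:32853942-32854191, plus strand: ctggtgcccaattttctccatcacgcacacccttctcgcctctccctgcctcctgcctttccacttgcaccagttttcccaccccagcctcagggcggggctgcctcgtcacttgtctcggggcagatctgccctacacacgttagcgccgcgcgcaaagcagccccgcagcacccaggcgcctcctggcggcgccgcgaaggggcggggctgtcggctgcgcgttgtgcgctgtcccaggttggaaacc

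The TAP1 promoter holds 2 overlapping copies of the response-element letters GAAANNGAAA between bases -134 and -119 from the start, and the TAPBP promoter holds 2 overlapping copies between -20 and -5. HLA-B and HLA-C hold the shorter form GAANNGAAA at -155 to -147 and at -151 to -143. HLA-B alone among the 8 matched genes has these exact kappa B letters, at -177 to -167. Near forms that differ from them by a letter, such as gggactttcc in the TAP1 window, were not searched for. The PSMB9 window has no match to either response-element form, but it reaches only 250 bases before the PSMB9 start. The TAP1 matches lie between the RefSeq start sites of TAP1 and PSMB9, beyond the reach of that window. Matches to GAAANNGAAA were also present in B2M, TAP2 and the second PSMB8 window. Over all 35116 promoter windows of 300 bases, 3.57% held GAAANNGAAA, 7.66% held GAANNGAAA and 1.39% held the kappa B letters. The longer form was added to the search after the windows had been seen. TAP2 and the second PSMB8 window hold both forms, which overlap there. A match is a description of letters only, and it says nothing of which factor was bound in these cells.

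**Figure D1:**
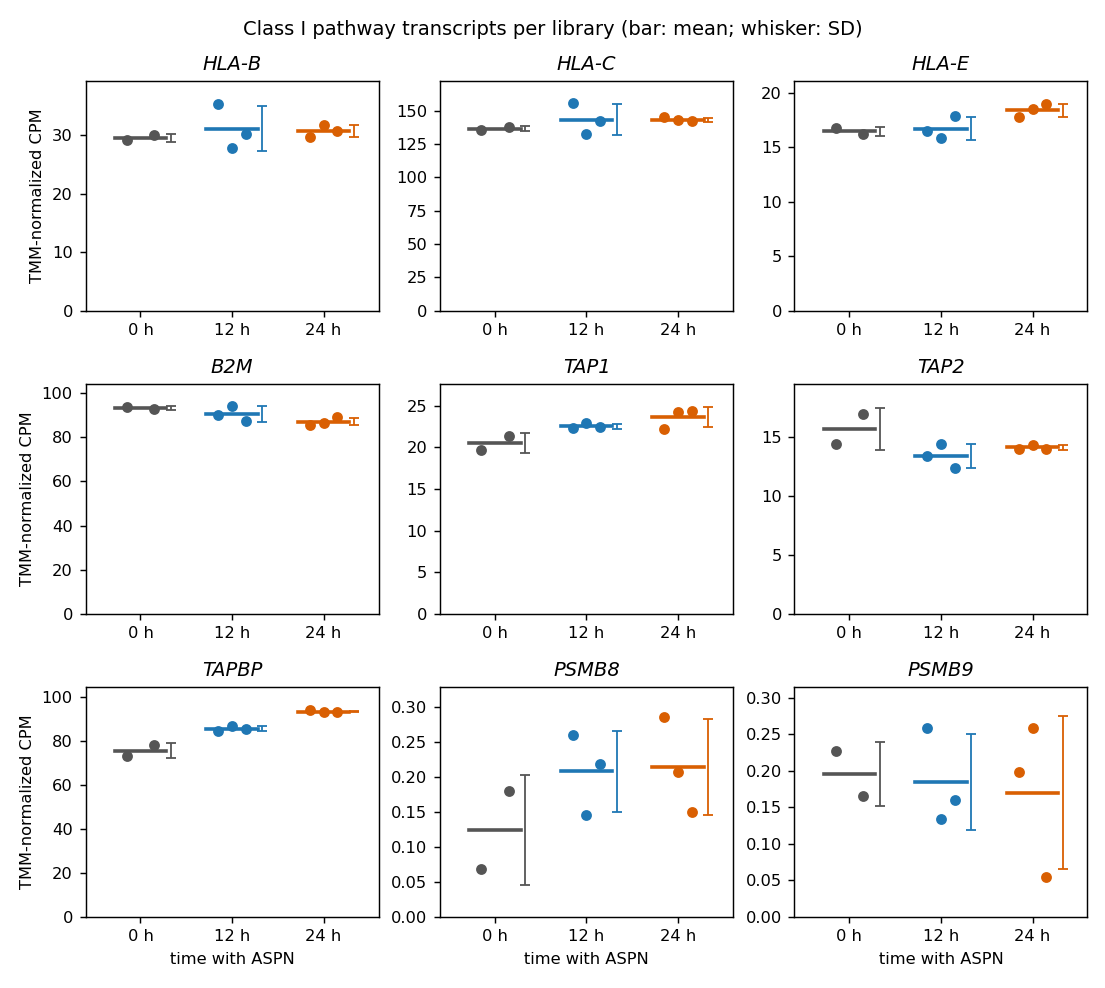
TMM-normalized CPM (y axis, linear from 0) of each of the 9 class I pathway genes against time with ASPN (x axis), with 1 point per library, a bar for the group mean and a whisker for the SD. TAPBP rose from 75.7 to 93.4 CPM with no overlap between any of the groups, whereas PSMB8 and PSMB9 reached at most 0.286 CPM in any library.

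TAPBP encodes tapasin, the chaperone that joins the class I heavy chain to the TAP transporter. Its level was 73.2 and 78.2 CPM in the 0 h libraries, 84.5, 86.7 and 85.6 CPM in the 12 h libraries, and 93.9, 93.1 and 93.2 CPM in the 24 h libraries. Every 12 h library was above both 0 h libraries, and every 24 h library was above every 12 h library. At 12 h TAPBP was higher by 0.18 on the log2 scale (SE 0.048), with an adjusted p of 0.0122 in edgeR. The rise at 24 h was 0.30 (SE 0.048), with an adjusted p of 1.89e-05 in edgeR. From 12 h to 24 h the difference of 0.13 (SE 0.043) did not pass the test, with an adjusted p of 0.118 by edgeR. Without 0 h replicate 1 the 12 h change was 0.13 and no longer passed (adjusted p 0.273 by edgeR), and in a fit of the 0 h and 12 h libraries alone its adjusted p was 0.0519. The 24 h change passed in each of the 15 alternatives run. An antisense long noncoding RNA covers 21.0% of the exon bases of TAPBP, and the counting options that would part the strands were not stated.

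TAP1 and TAP2 encode the partners that form the peptide transporter. TAP1 stood at 19.6 and 21.3 CPM at 0 h, at 22.3, 22.9 and 22.4 CPM at 12 h, and at 22.2, 24.3 and 24.3 CPM at 24 h. All 6 later libraries were above both 0 h libraries, while the 12 h and 24 h libraries overlapped. TAP1 rose by 0.21 on the log2 scale (SE 0.068) at 24 h, with an adjusted p of 0.0334 in edgeR, and its difference of 0.14 (SE 0.068) at 12 h did not pass (adjusted p 0.216 by edgeR). The 24 h call was lost when 1 of 3 libraries was left out: 0 h replicate 1 (log2 change 0.14, adjusted p 0.384), 24 h replicate 2 (0.19, adjusted p 0.122) or 24 h replicate 3 (0.18, adjusted p 0.121), each by edgeR. PSMB8-AS1, an antisense RNA counted at 3 to 7 reads per library, covers 14.2% of the exon bases of TAP1.

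TAP2, the partner, was measured at 14.4 and 17.0 CPM at 0 h, 13.4, 14.4 and 12.4 CPM at 12 h, and 13.99, 14.36 and 14.04 CPM at 24 h. Both 0 h libraries were above all later ones, but 0 h replicate 1 (14.44 CPM) was above 12 h replicate 2 (14.41 CPM) by very little, and the 0 h libraries differed from each other by more than the 12 h or the 24 h libraries did among themselves. The log2 differences from 0 h were -0.23 (SE 0.082, adjusted p 0.0734 by edgeR) at 12 h and -0.15 (SE 0.082, adjusted p 0.247 by edgeR) at 24 h, and neither passed. Without 12 h replicate 2 the 12 h difference was -0.28 with an adjusted p of 0.0297 by edgeR. Without the second 0 h library, which carries no replicate number, it was -0.097 at 12 h (adjusted p 0.615 by edgeR) and -0.026 at 24 h (adjusted p 0.910 by edgeR). TAP1 and TAP2 thus had estimates of opposite sign against 0 h. The count of TAP1 per count of TAP2 was 1.36 and 1.26 at 0 h, 1.66, 1.59 and 1.81 at 12 h, and 1.59, 1.69 and 1.73 at 24 h, a ratio chosen after the values were seen and not tested. A readthrough gene with 0 to 3 counts covers 19.5% of the exon bases of TAP2.

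HLA-C, one of the classical heavy chains, had the highest mean CPM of the 9 genes, with transcript length not taken into account. It was counted at 135 and 138 CPM at 0 h, 155, 132 and 142 CPM at 12 h, and 145, 143 and 142 CPM at 24 h. The 12 h libraries lay on both sides of the 0 h libraries, and the 24 h libraries lay above them by a small margin. Its log2 difference was 0.07 (SE 0.052) in both comparisons with 0 h, where edgeR gave an adjusted p of 0.458 at 12 h and one of 0.429 at 24 h, and the 95% interval at 24 h ran from -0.03 to 0.17. HLA-B, the other classical heavy chain in the set, stood at 29.1 and 30.0 CPM at 0 h, 35.3, 27.7 and 30.2 CPM at 12 h, and 29.6, 31.7 and 30.8 CPM at 24 h. All 3 groups overlapped, with the highest and the lowest library both at 12 h. Its log2 difference was 0.07 (SE 0.072) at 12 h and 0.06 (SE 0.072) at 24 h, with adjusted p of 0.611 and 0.686 by edgeR. An opposite-strand pseudogene with 0 to 7 counts and a microRNA gene cover 21.0% of the exon bases of HLA-B.

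HLA-B and HLA-C deviated together: in 12 h replicate 1 both had their highest level and in 12 h replicate 2 both had their lowest. Their levels correlated at r = 0.915 over the 8 libraries, which is a description with no test, since the libraries share depth and scaling. The HLA-C transcript is 91.2% identical to that of HLA-B over 1552 of its 1554 bases, so reads may be assigned to either, and both genes vary between people while the reads were aligned to reference alleles. Counts of HLA-B equalled 20.4% to 22.7% of those of HLA-C in the 8 libraries. Over the 3 time points this ratio did not differ beyond the spread between libraries (two-sided exact permutation test over 560 arrangements, p = 0.932, adjusted p = 0.939 over 5 ratios). With counts of both genes summed into 1 feature, the log2 difference from 0 h was 0.07 (SE 0.052) at 12 h and 0.07 (SE 0.052) at 24 h.

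HLA-E, a nonclassical heavy chain that engages an inhibitory receptor of natural killer cells, was at 16.8 and 16.2 CPM at 0 h, 16.5, 15.8 and 17.8 CPM at 12 h, and 17.7, 18.5 and 18.9 CPM at 24 h. The 12 h libraries overlapped with both other groups, and the 24 h libraries were all above 0 h. The log2 difference at 24 h was 0.16 (SE 0.073, adjusted p 0.157 by edgeR) and did not pass the test over all genes.

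B2M encodes the light chain shared by every class I molecule. It was at 93.8 and 92.7 CPM at 0 h, 90.1, 94.3 and 87.3 CPM at 12 h, and 85.7, 86.7 and 89.2 CPM at 24 h. The 24 h libraries were all below 0 h, and the 12 h libraries spanned both. The log2 difference at 24 h was -0.10 (SE 0.048, adjusted p 0.186 by edgeR), so no change in B2M passed the test. Summed counts of the 3 heavy chains per count of B2M were 1.93 and 1.98 at 0 h, 2.30, 1.86 and 2.18 at 12 h, and 2.24, 2.23 and 2.15 at 24 h. That ratio was also chosen after the values were seen, and its groups at 0 h and 24 h did not overlap.

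PSMB8 and PSMB9 encode catalytic subunits that replace PSMB5 and PSMB6 in the immunoproteasome. PSMB8 had 6 and 13 counts at 0 h, 20, 13 and 19 counts at 12 h, and 26, 20 and 11 counts at 24 h, or 0.0681 to 0.286 CPM. PSMB9 had 20 and 12 counts at 0 h, 20, 12 and 14 counts at 12 h, and 18, 25 and 4 counts at 24 h, or 0.0545 to 0.259 CPM. In both genes the groups overlapped, and 24 h replicate 3 held the fewest counts among the 24 h libraries. PSMB8 had a log2 difference of 0.82 (SE 0.640, adjusted p 0.455 by edgeR) at 24 h, with a 95% interval from -0.43 to 2.08. This value was 0.26 without 0 h replicate 1 and 1.65 without the unnumbered 0 h library. PSMB9 had -0.18 (SE 0.635, adjusted p 0.902 by edgeR), with an interval from -1.43 to 1.06. At this depth neither a change nor its absence could be shown for these subunits. The overlapping PSMB8-AS1 and each other's exons cover 17.3% of the exon bases of PSMB8, and 5.21% of those of PSMB9 are shared.

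The standard subunits were far higher in the same libraries. Counts of PSMB8 equalled 0.0782%, 0.133% and 0.139% of those of PSMB5 at 0, 12 and 24 h, and counts of PSMB9 equalled 0.180%, 0.163% and 0.177% of those of PSMB6. PSMB10, which replaces PSMB7, was higher than either: it had 1.53 ± 0.03 CPM (SD, n = 2) at 0 h, 1.75 ± 0.27 CPM (SD, n = 3) at 12 h and 2.02 ± 0.28 CPM (SD, n = 3) at 24 h, which was 0.979%, 1.12% and 1.30% of the PSMB7 counts. Another gene counted at 59 to 104 reads covers 39.4% of the exon bases of PSMB10. None of the 3 ratios differed over time beyond the spread between libraries by the exact permutation test (two-sided, 560 arrangements, adjusted p over 5 ratios 0.688, 0.939 and 0.688). TAP1, although its RefSeq start lies 488 bases from that of PSMB9, had counts equal to 8595% to 44700% of those of PSMB9 in single libraries. This ratio did not differ over time either (exact permutation test, two-sided, p = 0.825, adjusted p = 0.939).

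**Figure D2:**
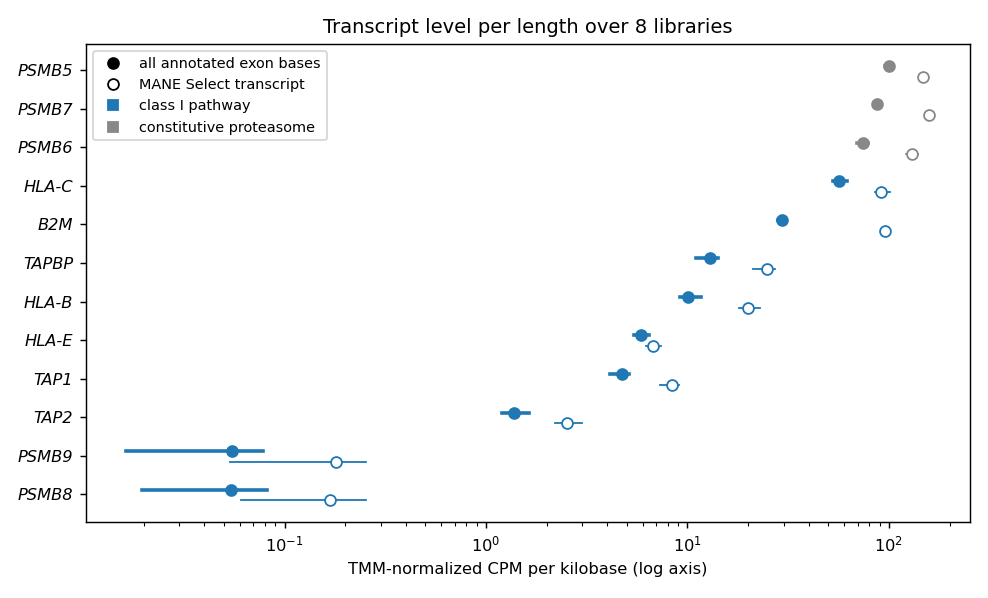
TMM-normalized CPM per kilobase (x axis, log scale) of the 9 class I pathway genes (blue) and 3 constitutive proteasome subunits (grey), as the mean over 8 libraries with a line from the lowest to the highest library. Filled points divide by all annotated exon bases and open points by the MANE Select transcript, and PSMB8 and PSMB9 lie below every other gene on both scales.

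Per kilobase of annotated exon, the mean level over the 8 libraries was 56.5 CPM for HLA-C, 29.6 for B2M, 12.9 for TAPBP, 10.1 for HLA-B, 5.91 for HLA-E, 4.73 for TAP1, 1.38 for TAP2, 0.0546 for PSMB9 and 0.0543 for PSMB8. The library ranges of TAPBP and HLA-B overlapped, as did those of PSMB9 and PSMB8, and the other neighbours in this order did not overlap. PSMB5, PSMB7 and PSMB6 stood at 99.7, 87.2 and 74.4 CPM per kilobase. With the length of the MANE Select transcript, an alternative chosen after the data were seen, B2M (95.4) and HLA-C (91.9) overlapped, and TAP1 (8.35) was above HLA-E (6.78) with overlapping ranges.

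**Figure D3:**
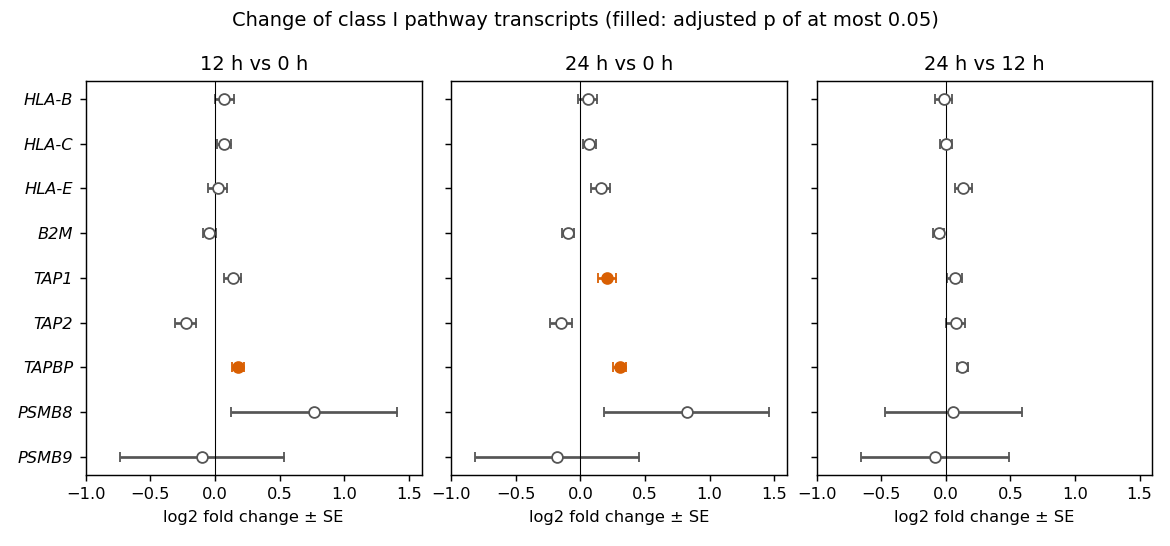
Log2 fold change (x axis, with whiskers of 1 SE) of each of the 9 class I pathway genes (y axis) at 12 h against 0 h, 24 h against 0 h and 24 h against 12 h. Filled points have an adjusted p of at most 0.05: TAPBP at 12 h, and TAP1 and TAPBP at 24 h, with log2 changes of 0.18 to 0.30.

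As a set, 1 of the 9 genes (TAPBP) rose at 12 h, none fell and 8 did not pass, where 11.6% of all tested genes passed (4.85% higher and 6.75% lower). At 24 h 2 rose (TAP1 and TAPBP), none fell and 7 did not pass, against 16.3% of all tested genes (7.82% higher and 8.49% lower). At an unadjusted p under 0.05 by edgeR, TAP2 was lower at 12 h and no member was lower at 24 h. Between 24 h and 12 h none passed, against 2.72% of all genes (1.12% higher, 1.61% lower). HLA-E at an unadjusted p of 0.0438 and TAPBP at 0.00577 were the only members below 0.05 by edgeR, and DESeq2 also passed none. No member combined an adjusted p of 0.05 with a fold of 1.5 in any comparison, where 1.05%, 2.45% and 0.18% of all genes did. The median log2 difference of the 9 genes was 0.07 at 12 h and 0.07 at 24 h, next to -0.00069 and -0.0031 over all genes tested. It was 0.06 between 24 h and 12 h, next to 0.0035 over all genes. The groups at 0 h and 24 h did not overlap for 6 of the 9 genes: HLA-C, HLA-E, TAP1 and TAPBP were higher and B2M and TAP2 lower, where 43.2% of all genes had no overlap (21.5% higher, 21.7% lower). At 12 h this held for 3, with TAP1 and TAPBP higher and TAP2 lower, where the share over all genes was 36.9% (17.3% higher, 19.6% lower). Between 12 h and 24 h only TAPBP was without overlap, against 19.6% of all genes (10.3% higher, 9.33% lower).

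The other genes of the loading complex and of peptide trimming were followed through a list of 11, all tested. At 24 h 5 fell, 1 rose and 5 did not pass, and the counts were the same at 12 h, with a median log2 difference of -0.12 at 24 h and -0.08 at 12 h. Of all genes tested, 8.49% passed lower at 24 h and 6.75% at 12 h. PDIA3, the disulfide isomerase bound to tapasin in the loading complex, fell: the 0 h libraries held 1345 ± 78 CPM (SD, n = 2), the 12 h libraries 1153 ± 11 CPM (SD, n = 3) and the 24 h libraries 1137 ± 26 CPM (SD, n = 3), which gave log2 changes of -0.22 and -0.24 (adjusted p 0.000408 and 6.31e-05 by edgeR). The lectin chaperones CALR and CANX fell by 0.15 and 0.18 on the log2 scale at 24 h, ERAP1, which trims peptides in the endoplasmic reticulum, fell by 0.26, and LNPEP, an aminopeptidase of endosomes, fell by 0.38. THOP1, a cytosolic peptidase that destroys peptides, rose by 0.24 at 12 h and 0.22 at 24 h. TAPBP counts per 100 counts of PDIA3 were 5.22 and 6.06 at 0 h, 7.34, 7.44 and 7.49 at 12 h, and 8.47, 8.05 and 8.14 at 24 h. That ratio, chosen after the values were seen and not tested, was without overlap between the groups. TAPBPL, a relative of tapasin that edits peptides, was at 5.38 ± 0.23 CPM (SD, n = 2), 6.70 ± 0.69 CPM (SD, n = 3) and 6.40 ± 0.81 CPM (SD, n = 3) at 0, 12 and 24 h and did not pass (edgeR adjusted p 0.0844 at 12 h, 0.156 at 24 h).

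**Figure D4:**
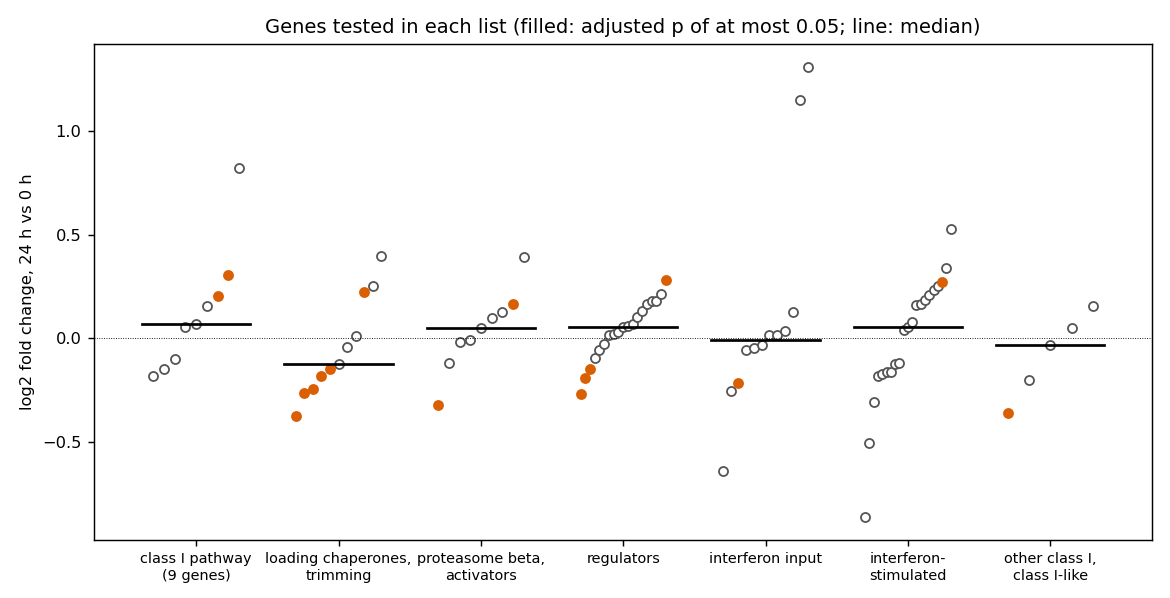
Log2 fold change at 24 h against 0 h (y axis) of each tested gene in 7 lists (x axis), with a line at the list median and filled points for an adjusted p of at most 0.05. The median of the 9 class I pathway genes was 0.07, and the list of loading chaperones and trimming enzymes had a median of -0.12 with 5 genes that fell.

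Proteasome catalytic subunits and activators, a list of 9, had 1 gene that rose (PSME3, log2 change 0.16, adjusted p 0.0129 by edgeR) and 1 that fell (PSME4, -0.32, adjusted p 8.39e-06 by edgeR) at 24 h, and these encode nuclear proteasome activators. PSME4 was also the 1 gene of this list to pass at 12 h, where it fell by 0.19 on the log2 scale (adjusted p 0.00876 by edgeR). Over all genes tested, 7.82% passed higher and 8.49% lower at 24 h. PSME1 and PSME2, which form an interferon-inducible activator, were at 98.1 and 50.4 CPM at 0 h and 105 and 55.0 CPM at 24 h and did not pass. Among 5 tested class I-like genes, MR1, which presents vitamin B metabolites, fell by 0.36 on the log2 scale at both times (edgeR adjusted p 0.00553 at 12 h, 0.00303 at 24 h), and HLA-F, HFE, FCGRT and MICA did not pass. The share of all genes that passed lower was 6.75% at 12 h and 8.49% at 24 h. The 7 class II genes tested did not pass in any comparison, with an adjusted p of 0.444 or more by edgeR.

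Regulators of class I genes numbered 20, of which 19 were tested. At 12 h 3 passed (1 higher, 2 lower) and at 24 h 4 passed (1 higher, 3 lower), where 11.6% and 16.3% of all genes did. IRF3, the factor that switches on interferon genes after viral sensing, rose by 0.27 at 12 h and 0.28 at 24 h on the log2 scale, and ATF1 (-0.25 and -0.19) and STAT3 (-0.14 at both times) fell, as did RFXAP, a subunit of the RFX promoter complex, at 24 h (-0.27). NLRC5, the class I transactivator, was at 0.820 ± 0.26 CPM (SD, n = 2) at 0 h, 1.03 ± 0.016 CPM (SD, n = 3) at 12 h and 0.927 ± 0.13 CPM (SD, n = 3) at 24 h. IRF1, which binds the response element, was at 2.97 ± 0.015 CPM (SD, n = 2), 3.09 ± 0.071 CPM (SD, n = 3) and 3.37 ± 0.37 CPM (SD, n = 3) at the 3 times. Neither passed.

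Of 16 interferon ligands, receptors and kinases, 12 were tested, and 1 passed in each of the 3 comparisons, where 11.6% (12 h), 16.3% (24 h) and 2.72% (24 h against 12 h) of all genes did. IFNGR1, a chain of the interferon-gamma receptor, fell by 0.32 at 12 h and 0.21 at 24 h on the log2 scale (adjusted p 0.00121 and 0.023 by edgeR), and JAK2, a kinase bound to that receptor, rose by 0.20 between 12 h and 24 h (adjusted p 0.0495 by edgeR). JAK1, needed by all interferon receptors, was at 4.70, 4.38 and 3.96 CPM at 0, 12 and 24 h and did not pass. Among the ligands, IFNB1, singled out after its values were seen, had 1 count in each of 2 libraries and 0 in the other 6. IFNA1, IFNG and IFNL1 were not among the 36474 genes with counts. Of 21 interferon-stimulated genes tested, 2 rose at 12 h (ISG15, log2 change 0.25, and OAS3, 0.41) and 1 at 24 h (ISG15, 0.27), none fell, and the median was 0.08 at 12 h and 0.06 at 24 h. These counts stand beside 4.85% of all genes higher at 12 h and 7.82% at 24 h.

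The genes whose profile over the 8 libraries was most like the mean standardised profile of the 9 genes were NDUFB4 (r = 0.988), ABCA7 (0.981), DTX4 (0.978), MRPL57 (0.963) and GAA (0.963), among 11577 protein-coding genes averaging 100 or more normalized counts. The 9 genes themselves correlated with that mean profile from -0.66 (B2M) to 0.81 (HLA-C). TAP1 and TAPBP correlated at r = 0.890 with each other over the 8 libraries. These values are descriptions over libraries that share depth and scaling, and 75 genes exceeded r = 0.9.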

How the data were processed

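Per the labels and the methods of the study, RNA of LNCaP cells was made into TruSeq mRNA libraries and sequenced as paired reads. The authors used Cutadapt to trim adapters, STAR to align to GRCh38, and featureCounts with a GENCODE annotation to count. The deposited values are raw counts per gene, without normalization, and how strand, read pairs and multi-mapped reads were handled is not given in the sources used here. Reads shared between similar or overlapping genes may therefore be counted for either. Of 36474 genes, 30996 had a versioned identifier of GENCODE 44, all with equal coordinates. This held for 3 of the 9 members, and the others were matched without the version.

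Columns were assigned by the time and number in their names. The second time-0 column carries a number that no time-0 label has, and it entered as an unnumbered 0 h library. Columns left unused numbered 0. Libraries of a group differed by more than sampling noise (chi-square per degree of freedom 5.32 to 15.2), so each was counted once.

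The test was edgeR 4.0.16 under R 4.3.3, by robust quasi-likelihood (TMM, filterByExpr, 1 coefficient per time point over the 8 libraries), and p values were adjusted by Benjamini-Hochberg over all 21071 genes kept. The filter asks for about 10 counts in enough libraries. A gene passed at an adjusted p of at most 0.05 and was called at a fold of at least 1.5 as well. SE values were computed from log2 fold change and F. The 5 ratios were compared by an exact permutation test over the 8 libraries. The procedure was run on simulated counts with changes planted at 24 h in highly counted genes. That run does not cover changes at 12 h or genes with counts as low as those of PSMB8 and PSMB9. Profiles were compared on log2 of CPM + 0.1.

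The members and gene lists were chosen with earlier results of these data known. All members were named; any gene of a list of up to 12 could be named, as could passing genes of longer lists, NLRC5, IRF1, JAK1 and JAK2, and the 5 genes with the most similar profile. One gene named by this rule is not reported here. Alternatives were RLE and upper-quartile scaling, other count filters, protein-coding genes alone, DESeq2 1.42.0, fits to the compared times, a replicate block, summed HLA-B and HLA-C counts, and leaving out each library.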

Additional observations from a re-analysis of the deposited data

How the results depend on the processing

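No member was called at a fold of 1.5 under any alternative, and no direction of a member changed except when single libraries were left out. In a fit of the compared times alone, 0 members passed at 12 h in place of 1. Leaving out each library in turn gave 0 to 2 members passing at 12 h and 1 to 2 at 24 h: 0 at 12 h without 0 h replicate 1, 2 at 12 h without 12 h replicate 2 (TAPBP and TAP2), and 1 at 24 h (TAPBP) without 0 h replicate 1, 24 h replicate 2 or 24 h replicate 3. The cause was not tested. The 24 h change of TAPBP passed under all 15 alternatives, with log2 changes of 0.25 to 0.36 and adjusted p of 3.42e-09 to 0.00369 by edgeR or DESeq2.

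With single libraries left out, log2 differences that changed sign ranged from -0.020 to 0.15 for HLA-B, -0.026 to 0.059 for HLA-E and -0.41 to 0.15 for PSMB9 at 12 h, and from -0.60 to 0.21 for PSMB9 at 24 h. Between 24 h and 12 h they ranged from -0.092 to 0.078 for HLA-B, -0.055 to 0.055 for HLA-C, -0.20 to 0.25 for PSMB8 and -0.51 to 0.31 for PSMB9. The 24 h minus 0 h log2 ratios ranged from -0.78 to 0.33 for PSMB9/PSMB6, -0.040 to 0.020 for HLA-B/HLA-C and -0.041 to 1.08 for TAP1/PSMB9. None of these passed a test in any setting.

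Deviations of same-numbered 12 h and 24 h libraries correlated at 0.106, 0.0278 and 0.0291, and those of differently numbered ones at -0.083 to 0.057. Correlations this low cannot decide whether the replicate numbers pair the libraries, and no label ties a number to a batch. With the replicate block, fitted to the 12 h and 24 h libraries alone, 0 members passed between 24 h and 12 h, as without it. Over the same 19705 genes, 865 passed with the block and 663 without it. A block that includes 0 h was not run, because only 1 of its columns carries a number that its labels give. A mean of at least 100 normalized counts left out PSMB8 and PSMB9, and DESeq2 gave no adjusted p for either. Counts of 4 to 26 limited what could be measured for both.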
